A study of Mus musculus with 2 samples.

Results

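The interleukin-1 (IL-1) family and its receptors were followed through the first days of fat cell formation in mouse embryonic fibroblasts. The genes were taken by symbol, as 4 ligands (Il1a, Il1b, Il33 and Il18), the receptor antagonist Il1rn, 4 receptor chains (Il1r1, Il1r2, Il1rap and Il1rl1) and the kinase Irak1. Of these 10 genes, 9 had a probe under their symbol, with 12 probes in all, out of 16637 named genes and 29922 gene probes on the array. No probe carried the symbol Il1rl1 or a listed synonym, so Il1rl1, which encodes the receptor of IL-33, was not analysed here.

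Both samples were embryonic fibroblasts that the labels give as Xbp1 knockout. Xbp1 is a gene that encodes a regulator of the response to unfolded protein. No sample with intact Xbp1 was analysed here, so the knockout is shared by both days. The day 0 sample was labelled as day 0 of adipogenesis, when the cells had become confluent, and the day 3 sample followed induction for 72 h. The inducing medium held insulin at 10 µg/ml, troglitazone and DXM at 5 µM each, and IBMX at 0.25 mM. IBMX blocks the phosphodiesterases that break down cAMP, and troglitazone activates the nuclear receptor PPARγ. The design asks how expression on day 3 stood against day 0. With 1 array per day there were no replicates, and all differences are descriptions without a test. The labels do not say whether the cells were 1 clone or pooled embryos.

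IL-1α and IL-1β bind the receptor IL-1R1, which then recruits the accessory protein encoded by Il1rap, the adaptor MyD88 and kinases of the IRAK family, and the signal ends in NF-κB and MAP kinase activation. The pathway is held back by the antagonist encoded by Il1rn, which occupies the receptor without recruiting the accessory chain, and by the decoy receptor encoded by Il1r2, which binds IL-1 and does not signal. Fibroblasts respond strongly to IL-1, and IL-1 is known to restrain fat cell differentiation and insulin signalling in adipose tissue.

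In the Xbp1 knockout fibroblasts, Il1a and its signalling receptor Il1r1 stood far higher on day 3 than on day 0, by 6.34-fold and 4.99-fold. The decoy receptor Il1r2 was 2.22-fold higher, and Il1b crossed the detection threshold between the days. Il1rn differed by less than 1.5-fold, and the accessory chain Il1rap and the alarmin Il33 read lower on day 3. In all, 3 of the 9 genes had a day 3 signal at least 2-fold above that of day 0, as had 12.8% of all 10656 detected genes, and 0 lay 2-fold toward day 0, against 10.3%. The members' counts were the same with signals below the detection threshold set to it, beside 10.2% and 8.51% of all detected genes. The median difference of the 9 genes was 0.30 on the log2 scale, beside 0.03 over all detected genes.

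The windows before the start sites of the 4 members with the highest day 3 over day 0 ratios as read are shown. Il1b is among these members, although its day 0 signal lay below the detection threshold. The windows were thus chosen by outcome, and whether these genes are regulated together was not tested. Each is 250 bases long, ends just before a RefSeq start on GRCm38.p6 and is written 5′ to 3′ along its own gene. Capitals mark any match, on either strand, to TATAAA, to TGANTCA (AP-1), to TGACG (the cAMP response half-site), to TTNNGNAA (C/EBP), to CACGTG (the E-box) or to the kappa B motif. Il1r1 has a pair of listed starts, and the array probe is not tied to either of them.
Il1a (chr2:129309973-129310222, minus strand): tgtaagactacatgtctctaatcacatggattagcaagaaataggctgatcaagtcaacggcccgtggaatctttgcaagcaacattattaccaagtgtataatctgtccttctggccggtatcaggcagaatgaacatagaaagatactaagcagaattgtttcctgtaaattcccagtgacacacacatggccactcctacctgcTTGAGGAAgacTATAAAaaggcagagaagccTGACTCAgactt
Il1b (chr2:129371140-129371389, minus strand): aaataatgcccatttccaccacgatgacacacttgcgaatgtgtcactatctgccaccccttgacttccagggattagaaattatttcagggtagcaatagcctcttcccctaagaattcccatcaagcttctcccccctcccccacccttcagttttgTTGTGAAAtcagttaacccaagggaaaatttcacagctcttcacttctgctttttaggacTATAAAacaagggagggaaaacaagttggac
Il1r1, upstream start (chr1:40224830-40225079, plus strand): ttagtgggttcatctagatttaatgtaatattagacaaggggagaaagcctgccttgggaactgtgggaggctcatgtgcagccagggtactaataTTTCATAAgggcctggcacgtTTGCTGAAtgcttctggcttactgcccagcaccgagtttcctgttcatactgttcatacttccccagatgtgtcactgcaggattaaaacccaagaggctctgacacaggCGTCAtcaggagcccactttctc
Il1r1, downstream start (chr1:40266336-40266585, plus strand): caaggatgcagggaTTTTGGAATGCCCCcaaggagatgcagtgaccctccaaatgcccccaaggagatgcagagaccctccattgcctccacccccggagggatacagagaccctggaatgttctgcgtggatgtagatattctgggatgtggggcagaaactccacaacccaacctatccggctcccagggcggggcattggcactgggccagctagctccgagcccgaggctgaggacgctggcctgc
Il1r2 (chr1:40085843-40086092, plus strand): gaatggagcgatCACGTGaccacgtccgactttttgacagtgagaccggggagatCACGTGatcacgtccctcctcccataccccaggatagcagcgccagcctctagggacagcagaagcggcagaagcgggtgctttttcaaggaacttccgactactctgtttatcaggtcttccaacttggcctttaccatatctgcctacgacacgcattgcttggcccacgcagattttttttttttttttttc

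Il1a and Il1b, which are neighbouring genes on chromosome 2, both held TATAAA close to the start, at 32 to 27 bases before it in Il1a and 31 to 26 bases before it in Il1b. TATAAA was found in 12.4% of all 32851 windows of this length. Il1a also held TGACTCA, an AP-1 match, at 12 to 6 bases before its start, a motif found in 6.75% of windows. A C/EBP match lay in the windows of Il1a, Il1b and both starts of Il1r1, but this loose motif was present in 36.8% of all windows. The upstream Il1r1 window held the cAMP response half-site 23 to 19 bases before the start (17.8% of windows), and the downstream one held a kappa B match that overlaps its C/EBP match (7.25%). The Il1r2 window held none of these and had CACGTG at 2 places (6.02%). Other members held some of these motifs too. Il33 had TATAAA at 29 to 24 bases before 1 of its starts, and Il1rn had an AP-1 match before 1 of its starts. Both Irak1 starts had the cAMP response half-site and a kappa B match. Of the 16 windows of all 10 members, 5 held TATAAA, 2 AP-1, 4 the cAMP response half-site, 10 C/EBP and 3 kappa B. A match of letters is a description and shows no binding.

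Among the ligands, Il1a encodes IL-1α, which is active as a full-length precursor and can be released from damaged cells. Its brighter probe (mMR001431) read a normalized signal of 352 on day 0 and 2233 on day 3, which is a difference of 2.67 on the log2 scale. Day 3 was the high sample, and the difference exceeded the repeat-spot SD. That SD came from the spread of control features printed several times within an array, scaled to a difference. It leaves out variation between cultures, extractions and hybridizations. It was 0.34 from the median feature and 0.74 pooled over features. The other Il1a probe (mMC014701) read 90.5 and 844. Its day 0 signal lay below the detection threshold of 122, the median of all gene probes, so it was at least 6.92-fold higher on day 3. Both probes thus gave the same direction, and by the brighter one Il1a stood at rank 81 from the highest difference among the 10656 detected genes.

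Il1b encodes IL-1β, whose precursor must be cleaved before it can signal. Its probe read 73.5 on day 0, below the threshold, and 145 on day 3, above it, so that the signal was at least 1.19-fold higher on day 3. As read, the log2 difference was 0.98, larger than the pooled repeat-spot SD of 0.69. The unnormalized intensities were 43 and 196, and 95% of empty spots read no more than 7 on day 0 and 9 on day 3. The size of the Il1b difference varied with the processing, from 0.25 with signals below the threshold set to it, through 0.77 under cyclic loess and 1.59 under median scaling relative to all genes, to 2.19 with no normalization. It was above 0 in all 9 alternatives that gave a value. Taken as read from the same pair of arrays, the Il1a difference exceeded that of Il1b by 1.69, against a pooled repeat-spot SD of 1.01. This gap ranged from 1.13 to 2.42 over the main processing and the 9 alternatives that measured both. Its size is not fixed, because the day 0 signal of Il1b lay below the threshold.

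Il33 encodes a nuclear cytokine that acts as an alarm signal when cells die, and fibroblasts of many tissues express it. Its signal was 5878.5 at day 0 and 3056.7 at day 3. Day 0 was the high sample, with a log2 difference of -0.94 that was just over the pooled repeat-spot SD of 0.89 and just short of 2-fold. Of all detected genes, 11.3% had a difference further toward day 0. Il18, a cytokine that also needs cleavage, read 403 and 275.5, a difference of -0.55 that lay within its pooled SD of 0.74. With no normalization Il18 turned to 0.22, because every signal is then taken as scanned and the median of all genes stood at 0.67.

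**Figure D1:**
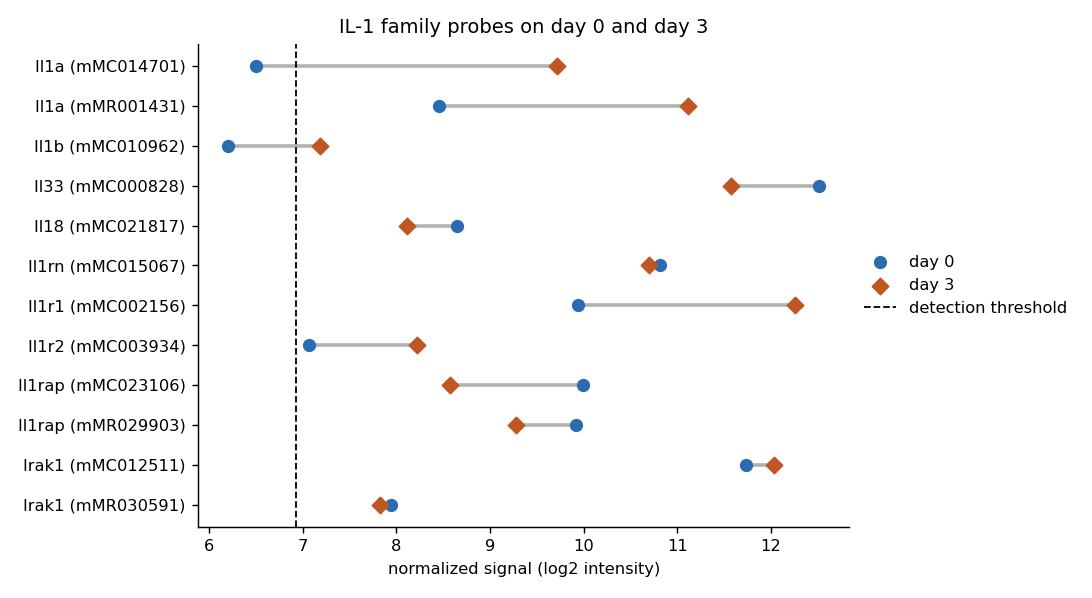
Normalized signals (log2 intensity, horizontal axis) of the 12 probes of 9 IL-1 family genes on day 0 (circles) and day 3 (diamonds), with 1 array per day, and the detection threshold at 6.93 (dashed line). Il1a and Il1r1 show the widest steps toward day 3, Il33 and Il1rap step toward day 0, and Il1rn and Irak1 nearly overlap.

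The antagonist Il1rn did not follow Il1a. Its signals were 1813.2 on day 0 and 1665.5 on day 3. The log2 difference of -0.12 lay well inside its pooled repeat-spot SD of 0.58. The gap between the Il1a and Il1rn differences was 2.79, against a pooled SD of 0.94, and it ranged from 2.62 to 3.07 over the main processing and the 11 alternatives. Such a gap does not change with a constant applied to a whole array, so it describes unequal change of the ligand and its antagonist between these samples. The sign of Il1rn itself was not settled, as it was 0.37 with no normalization and -0.71 under median scaling.

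Among the receptors, Il1r1, the chain that binds IL-1α and IL-1β and signals, read 982.5 on day 0 and 4906 on day 3. The difference of 2.32 exceeded the pooled repeat-spot SD of 0.58, and Il1r1 stood at rank 137 from the highest among detected genes. Its difference was 2.33 in the authors' value table for the whole series, where Il1a gave 2.76. Il1r2, the decoy, read 134 and 297.5, a difference of 1.15 against a pooled SD of 0.69, with its day 0 signal close to the threshold of 122. It was short of 2-fold, at 0.92, when an offset of 50 was added to every signal. The Il1r1 difference was larger than that of Il1r2 by 1.17, against a pooled SD of 0.90, and this gap ranged from 0.68 to 1.35 over the main processing and the 10 alternatives that measured both.

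Il1rap, the accessory chain that IL-1R1 shares with the receptor of IL-33, was the member whose probes differed most. The probe with the higher mean signal (mMR029903) read 968.5 on day 0 and 622.5 on day 3, a difference of -0.64 within the pooled SD of 0.74. The other (mMC023106) read 1015 and 380.5, a difference of -1.42 that was larger than the same SD and 2.67-fold lower on day 3. Both probes read higher on day 0 than on day 3 in normalized signal, and the mean over them was -1.03. The ligand-binding chain and its accessory chain thus parted, with an Il1r1 difference 2.96 above that of Il1rap, against a pooled SD of 0.94. Over the main processing and the 11 alternatives the gap lay between 2.86 and 3.35.

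**Figure D2:**
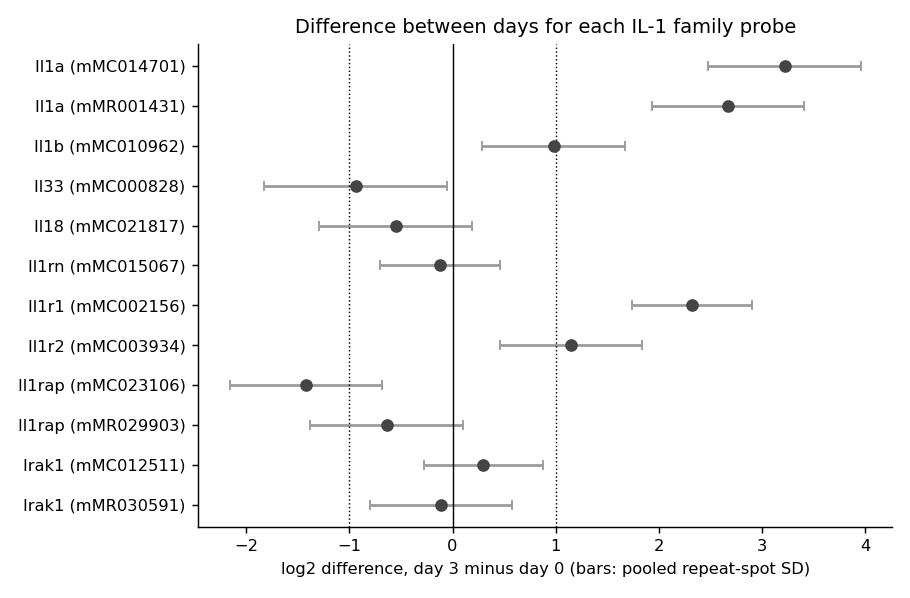
Log2 difference, day 3 minus day 0 (horizontal axis), for each IL-1 family probe, with bars of 1 pooled repeat-spot SD and dotted lines at 2-fold in each direction. Both Il1a probes and Il1r1 lie beyond 2-fold with their whole bars, and the bars of Il18, Il1rn, Irak1 and 1 Il1rap probe cross 0.

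Irak1 encodes a kinase that joins the receptor complex through MyD88. Its brighter probe (mMC012511) read 3392.2 on day 0 and 4175.5 on day 3, a difference of 0.30 within the pooled SD of 0.58. The dimmer one (mMR030591) read 245.8 and 228.2, a difference of -0.11. The Irak1 probes had opposite signs, and both differences were under 1.5-fold, as were those of 54.6% of all detected genes.

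**Figure D3:**
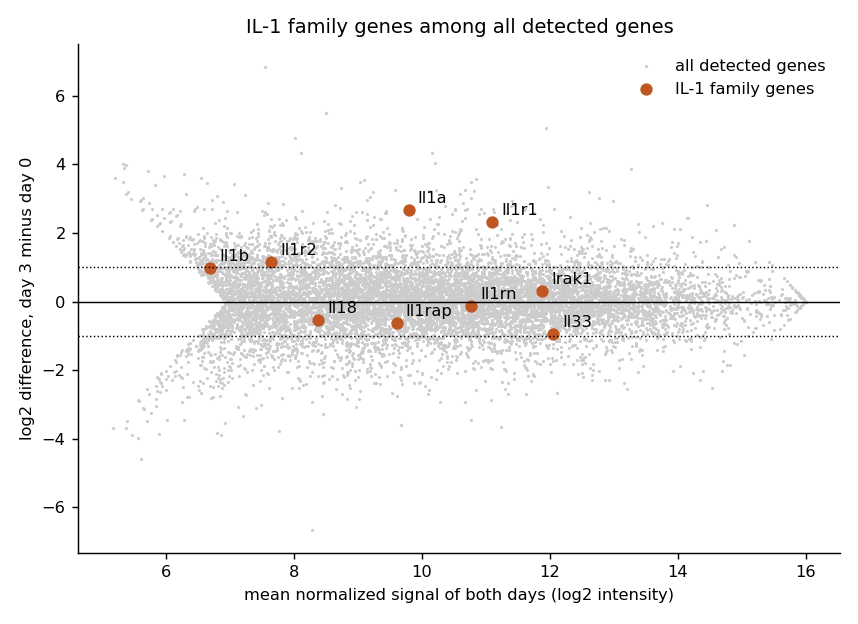
Each grey point is 1 of 10656 detected genes, with the mean log2 signal of both days on the horizontal axis and the log2 difference, day 3 minus day 0, on the vertical axis. The 9 IL-1 family genes are marked, Il1a (2.67) and Il1r1 (2.32) lie near the upper edge of the cloud, and Il33 (-0.94) lies just inside the lower 2-fold line.

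Il1a and then Il1r1 had the highest differences of the members in every setting. The order of Il1b and Il1r2 changed, from 0.98 and 1.15 in the main processing to 1.10 and 1.06 under median scaling as read. Il1a lay between 2.23 and 3.32 and Il1r1 between 1.73 and 2.82 over all 11 alternatives, and both stayed past 2-fold in each of them. Il1r2 lay between 0.92 and 2.15 in the 10 alternatives that measured it. Il33 and Il1rap were below 0 in all 11, at -1.60 to -0.52 and -1.13 to -0.04. The signs of Il18, Il1rn and Irak1 changed between scalings. Higher genes made up 55.4% of all genes past 2-fold in the main processing, 24.6% under median scaling and 92.6% with no normalization. The median of all genes shifted to -0.49 in the former and to 0.67 in the latter.

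**Figure D4:**
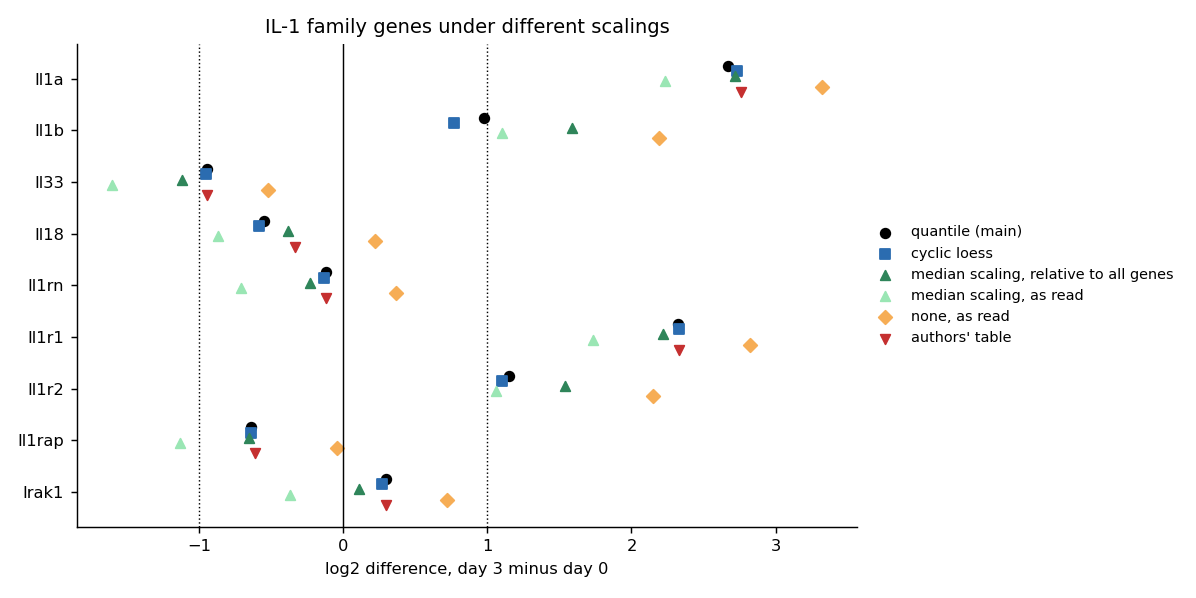
Log2 difference, day 3 minus day 0 (horizontal axis), of 9 IL-1 family genes under 6 ways of putting the arrays on 1 scale, with dotted lines at 2-fold. Il1a and Il1r1 lie above the upper line in all 6, Il33 and Il1rap lie below 0 in all 6, and Il18, Il1rn and Irak1 lie on both sides of 0. Il1b and Il1r2 have no value in the authors' table.

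Several of these genes lie side by side in the genome. In the order of coding genes on chromosome 1, Il1r2, Il1r1, Il1rl2, Il1rl1, Il18r1 and Il18rap follow each other with no other coding gene between them. Il1r2 and Il1r1, at the start of this run, were higher on day 3. Il1rl2, the receptor of the IL-36 cytokines, read 251 and 242, a difference of -0.05. Il18r1, which encodes the binding chain of the IL-18 receptor, stayed below the threshold on both days, with signals of 89.5 and 77.8. Il18rap, its accessory chain, read 160.5 on day 0 and lay under the threshold on day 3 (77.8), at least 1.32-fold lower and 2-fold lower as read (-1.05). Of the 5 receptor genes of this run that had a probe, 2 were at least 2-fold higher on day 3, beside 12.8% of all detected genes. Il18rap was 2-fold lower as read, as were 10.3% of all detected genes, and Il18r1 could not be called.

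The other family members were mostly dim. Of 5 other ligand genes, Il1f6, also called Il36a, was the 1 above the threshold, with 5544.5 on day 0 and 3433 on day 3, a difference of -0.69 within the pooled SD of 0.89. The other 4 ligand genes had signals of at most 52.5. Of the 7 genes for other receptors and the soluble inhibitor Il18bp, Il1rl2 and Il18rap were above the threshold on at least 1 day.

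In the signalling complex that IL-1R1 assembles, no gene was past 2-fold by the probe that stood for it. Of 17 listed genes, 14 had a probe and 13 were detected, 0 of which were 2-fold higher or lower, beside 12.8% and 10.3% of all detected genes. Of the 13, 11 differed by less than 1.5-fold, as did 54.6% of all detected genes, and their median difference was -0.03. Traf6, which encodes the ubiquitin ligase of the complex, gave 0.03 by that probe, and another probe above the threshold on both days gave -1.43, a difference noticed after its values were seen. The largest were Ecsit (-0.97), an adaptor linked to TRAF6, Map3k7 (-0.86), which encodes the kinase TAK1, Tab2 (-0.56), which encodes a partner of TAK1, and Myd88 (-0.56), which encodes the adaptor of the pathway. Myd88 read 3257.5 and 2204, within its pooled SD of 0.58.

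Genes that process the precursors of IL-1β, IL-18 and IL-1α had a median of 0.37, beside 0.03 over all detected genes, with 8 of 12 detected. By the probe that stood for each gene, 0 were past 2-fold in either direction, beside 12.8% higher and 10.3% lower among all detected genes. Gsdmd gave -0.25 by that probe and -1.06 by another, a difference noticed after its values were seen. Casp1, which encodes the caspase that cleaves the IL-1β and IL-18 precursors, read 101.5 on day 0, below the threshold, and 188.5 on day 3, at least 1.55-fold higher. Naip2, which senses bacterial proteins for an inflammasome, gave 0.79, and Casp8 gave 0.54. Capn2, a calpain gene, encodes a protease able to cleave the IL-1α precursor, and its 3 probes gave -0.74, -0.90 and -1.17. Nlrp3, the sensor of the best known inflammasome, stayed below the threshold, at 10.5 and 19, and was chosen for mention after its values were seen.

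Genes that IL-1 is known to induce in fibroblasts were split. Of 30 such genes, 28 were detected. Past 2-fold, 7 lay toward day 3 and 5 toward day 0, beside 12.8% and 10.3% of all detected genes. Both counts were the same with dim signals set to the threshold, beside 10.2% and 8.51%. A further 4 (C3, Cxcl1, Cxcl5 and Saa3) lay at the saturation limit on either day and are without a measurable difference, and the median of the remaining 24 was 0.19. The colony-stimulating factor gene Csf3 (517.5 and 4583, a difference of 3.15) and the chemokine gene Cxcl2 (1039.5 and 7357, a difference of 2.82) were highest. The chemokine genes Ccl20 (449 and 30, at least 3.68-fold lower) and Ccl7 (3441.5 and 453.2, a difference of -2.92) were lowest. The other 2-fold higher genes were Il6, Ptgs2, Nfkbiz, Nos2 and Bcl3, and the other lower ones were Has2, Vcam1 and Ccl2, all named after their values were seen. Nfkbia, the inhibitor of NF-κB that the pathway induces, read 6744 and 7485.5, a difference of 0.15, and was likewise chosen afterwards.

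**Figure D5:**
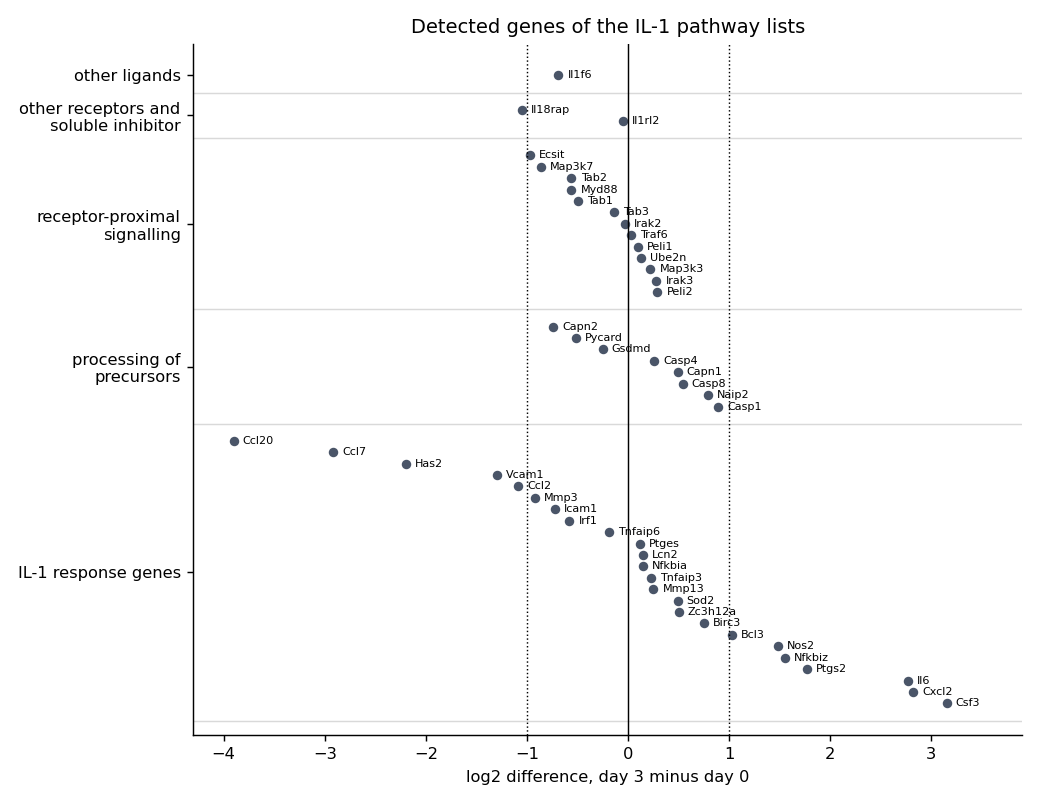
Log2 difference, day 3 minus day 0 as read (horizontal axis), of the detected genes in 5 lists of the IL-1 pathway, 1 point per gene, without the 4 saturated on both days, and with dotted lines at 2-fold. All 13 signalling genes and all 8 processing genes lie inside the 2-fold lines, and the response genes spread from Ccl20 (-3.90) to Csf3 (3.15).

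Markers of other cell types were read as well, because macrophages are known to make Il1a, Il1b and Il1rn, and neutrophils Il1r2. In whole cultures, fewer cells of a type and less RNA per cell cannot be told apart. All 10 fibroblast markers were above the threshold on at least 1 day, with summed normalized signals of 237057 on day 0 and 181020 on day 3. Saturation limits both sums, through Dcn on both days and Vim on day 0. Of the 10 markers, 3 were 2-fold lower on day 3 as read, beside 10.3% of all detected genes, and 2 of them also at the bound, beside 8.51%. A further 1 was 2-fold higher, beside 12.8%. Of 10 macrophage markers, 5 were above the threshold on at least 1 day. The summed normalized signal of all 10 was 17534 on day 0 and 43730 on day 3, most of it from Cd14 (16036 and 39698.5) and Itgam (703.5 and 3556). Csf1r, the receptor that macrophages depend on, went the other way, from 269.5 to 51.5 and so at least 2.21-fold lower, Aif1 read 131.5 and 78.5, and Cd68 read 198.5 and 268. Ptprc, which marks all leukocytes, had raw intensities of -2 and 3 by 1 probe and 2 and 11 by the other, and the macrophage marker Adgre1 had 2 and 15. Against the 95th percentile of empty spots, 7 on day 0 and 9 on day 3, all 3 probes were lower on day 0, while 1 Ptprc probe and Adgre1 were slightly higher on day 3. Of 8 neutrophil markers, 6 had a probe and 3 were detected, with sums of 899 and 4826, mostly from S100a8 (590 and 4318.5). The other detected ones also read higher on day 3. Camp read 127 and 174, and Retnlg read 67.5, below the threshold, and 195.5. S100a9, Mpo and Csf3r were below the threshold on both days, S100a9 with raw intensities of 8 and 10. Mast cell markers were below the threshold in 8 of 8 cases, with sums of 108.5 and 128.5. Endothelial markers had 3 of 6 detected, with sums of 606 and 798. Pecam1 read 189.5 and 568.5, Tie1 read 125.5 and 125, and Kdr read 168 and 17.5, below the threshold on day 3. Epithelial markers had 3 of 7 detected, with sums of 646.5 and 976. Krt14 read 150.5 and 387.5, Trp63 read 166.5 and 382.5, and Krt18 read 148 and 114.5. Of 8 adipocyte markers, Lpl and Pparg were detected. The other 6 (Fabp4, Adipoq, Plin1, Cidec, Cfd and Lep) were below the threshold on both days. The sum of that list, 9165.5 on day 0 and 59964.5 on day 3, was nearly all Lpl (8480 and 59293, saturated on day 3), and Pparg read 608 and 372.5. The part of these genes in the IL-1 differences was not tested.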

How the data were processed

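Total RNA was measured on 1 single-colour Cy5 array per day. Per the labels' protocols, 1 µg was amplified and labelled by Phalanx. The authors deposited 1 linear intensity per spot, 39200 per array. How the image was read and background removed is not stated in the labels or files, and the empty spots had a median of 0 on both days. Raw gene probe intensities had medians of 78 (day 0) and 166 (day 3). A second deposited table, of the whole series, had linear intensity values for 11482 of the 29922 gene probes and nearly equal medians of 1410 on both days. Its filter and its scaling between arrays are not stated in the labels or files.

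The gene probes of both arrays were quantile normalized (limma 3.58.1, R 4.3.3), signals under 10 were set to 10, and log2 was taken. Signals of 65000 or more counted as saturated. The platform annotation gave 21020 probes 1 symbol each, 0 probes several and 8902 probes none, and symbols were updated through GRCm38.p6 synonyms. Each gene was represented by its probe of highest mean log2 signal. Genes above the gene probe median, 122, on at least 1 day counted as detected. Where 1 day was below that threshold or saturated, the fold is a lower bound. The repeat-spot SD came from control features with 5 or 6 spots and leaves out variation between cultures, extractions and hybridizations. The calculation was tested on simulated data with known changes in signals well above the threshold and below saturation. Dim and saturated signals were not covered by that simulation.

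All members were named, with up to 4 detected genes of each pathway list by size of difference. The members, lists and markers were chosen with earlier results of these data known. Promoter sequences were from RefSeq (GRCm38.p6), where all 10 members matched.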

Additional observations from a re-analysis of the deposited data

How the results depend on the processing

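All 9 alternative choices were run, with median scaling and no normalization given both as read and relative to the median of all genes, which makes 11 settings. The count of members at least 2-fold higher was 3 in the main processing, beside 12.8% of all detected genes. It lay between 2 and 4 over the settings. That share ran from 7.81% under median scaling as read to 35.7% with no normalization as read, and both gave a count of 4. In the authors' table the count was 2 of 7, as Il1b and Il1r2 have no value there. The median difference of the members was 0.30 and became -0.37 under median scaling as read. The count of members at least 2-fold lower was 0, beside 10.3% of all detected genes. It became 2 under median scaling as read (Il33 and Il1rap), beside 23.9%. The count was 1 under median scaling relative to all genes (Il33), beside 10.1%. It was also 1 with no normalization relative to all genes (Il33), beside 10.5%, and with the mean of all probes (Il1rap), beside 10.8%. The median over all pathway lists was 0.11 and became -0.54 under median scaling as read and 0.57 with no normalization as read. Among single members and lists, 121 of 151 values moved by less than the repeat-spot SD of the median feature (for lists, its highest value over the signal ranges, 0.43), which is smaller than the pooled one, and 30 moved by more, and no member past 2-fold changed sign. No paired analysis was possible because each day had 1 array. Signals near the threshold, as for Il1b and Il1r2, limit how firmly those folds can be stated.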
